A study of Mus musculus with 4 samples.

Results

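Histone acylation writers, erasers and readers are the enzymes that place acyl groups on histone lysines, the enzymes that remove them, and the proteins whose domains bind the acylated lysine. A fixed list of 46 mouse genes was taken from the 21887 protein-coding genes of the RefSeq table, by symbol. It held 13 acyltransferases, 6 subunits of acyltransferase complexes, 16 deacylases and 11 readers. The data were peak lists from ChIP-seq in which an antibody against H3K23pr (histone H3 propionylated on lysine 23) was used on the liver of male C57BL/6 mice. WT stands for RPN11 flox/flox mice, which carry the floxed allele undeleted, and KO for mice with a hepatocyte-specific RPN11 knockout. RPN11, the product of Psmd14, removes ubiquitin from proteins at the proteasome, and the title of the series names non-alcoholic fatty liver disease. Each genotype had 1 immunoprecipitated (IP) library and 1 input library, so every difference between WT and KO is a difference between these libraries and has no replicate check. The Cre driver, the age of the mice and any pooling of animals are not given in the sources used here. Whole liver also contains endothelial cells, Kupffer cells and other cells in which a hepatocyte-specific deletion leaves RPN11 in place.

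Histone propionylation uses propionyl-CoA as the donor, and most of its enzymes are shared with acetylation. KAT6A and KAT6B, held in a complex by a BRPF scaffold with ING4 or ING5 and MEAF6, are the enzymes best known for acylating H3K23, and KAT7 works with the same kind of scaffold. EP300 and CREBBP are broad acyltransferases that accept longer acyl-CoA donors. HDACs are zinc-dependent and sirtuins NAD-dependent deacylases. Bromodomains bind mostly acetylated lysine, whereas YEATS domains and double PHD fingers also hold longer acyl groups, and the PHD finger and bromodomain of TRIM24 are known for binding H3 that is acetylated on lysine 23.

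The transcription start regions of the genes on which the results turn are shown first, because the distance from a start to the nearest peak is a measurement given for them. Sequences are from RefSeq (GRCm38.p6), which had a start for 39 of the 46 genes and 54 starts in all. Each sequence runs 5′ to 3′ on the strand of the gene and holds the bases just before the gene. Capitals mark the GC box GGGCGG, the CCAAT box CCAAT and the TATA box TATAAA, each searched on both strands, so that CCGCCC and ATTGG are reverse matches. Ep300 (chr15:81585964-81586208, plus strand) had the most WT peaks for its length, Hdac9 (chr12:34917096-34917345, minus strand) the most peaks in both lists, and Trim24 (chr6:37870561-37870810, plus strand) a peak of each genotype just upstream of its start. Sirt3, not printed here, also had a peak of each genotype upstream of its start.
Ep300: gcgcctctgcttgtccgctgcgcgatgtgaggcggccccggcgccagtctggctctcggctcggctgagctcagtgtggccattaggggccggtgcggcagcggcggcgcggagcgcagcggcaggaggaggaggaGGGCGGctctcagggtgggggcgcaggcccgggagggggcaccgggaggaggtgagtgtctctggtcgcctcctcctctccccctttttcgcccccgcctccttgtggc
Hdac9: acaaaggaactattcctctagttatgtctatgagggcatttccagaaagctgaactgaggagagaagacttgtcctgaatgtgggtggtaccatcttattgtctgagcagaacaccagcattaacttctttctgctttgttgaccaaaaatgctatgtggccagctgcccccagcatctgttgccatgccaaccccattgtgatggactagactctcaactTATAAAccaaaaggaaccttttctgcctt
Trim24: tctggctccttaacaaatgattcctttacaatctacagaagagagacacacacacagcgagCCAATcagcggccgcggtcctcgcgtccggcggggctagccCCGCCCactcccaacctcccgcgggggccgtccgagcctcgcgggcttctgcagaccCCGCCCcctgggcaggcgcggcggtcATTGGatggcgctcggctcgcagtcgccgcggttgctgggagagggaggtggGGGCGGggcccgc
The Ep300 sequence had 73.9% G and C with 24 CpG dinucleotides and 1 GC box. The Trim24 sequence had 69.6% G and C, 27 CpG, 3 GC boxes and 2 CCAAT boxes. The Hdac9 sequence had 44.4% G and C, no CpG and 1 TATA box. Over the 54 start regions of the listed genes, the 250 bases before the start had a median of 62.2% G and C, against 55.6% over 21263 starts of all protein-coding genes. A GC box stood in 34 of the 54 (63.0%, against 42.6% of all starts), a CCAAT box in 20 (37.0% against 35.4%), and a TATA box in 1, that of Hdac9 (1.85% against 11.6%). These matches describe the letters only.

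The windows of the listed genes held 203 peaks in all, of which 173 belonged to the 39 genes with a listed start. None of these 173 overlapped a start region, taken as 250 bases before to 50 bases after a start. Counted by start region, 0 of the 54 held a peak in either list. Of all 21263 start regions, 0.442% held a peak in WT and 0.193% in KO. With shares this low, no overlap in 54 regions says nothing particular about the listed genes. The nearest peak to the printed Ep300 sequence lay 6152 bp downstream of the start, in WT. For Hdac9 the nearest WT peak lay 22.8 kb and the nearest KO peak 38.4 kb downstream of the printed start. At the other start listed for Hdac9, a KO peak of 6 fragments (chr12:34527875-34527963) lay 970 bp downstream. For Trim24 a WT peak of 5 IP fragments (chr6:37870214-37870346) lay 531 bp upstream and a KO peak of 6 fragments (chr6:37868869-37868946) 1904 bp upstream.

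The WT peaks rest on 13615838 IP fragments of 97 bp on average and the KO peaks on 15468265 fragments of 71 bp. These counts are after filtering, which kept at most 2 fragments per pair of ends. The authors' lists held 54397 WT and 41907 KO peaks, a ratio of KO to WT of 0.770. Most peaks were weak, with a median of 5 IP fragments over the summit in both lists, and only 464 WT peaks (0.853%) overlapped a KO peak. A peak is therefore a short stretch where a few fragments lay together in 1 library. Fragment counts, folds and ranks by p are the authors' own values for a peak. Intervals given below are exact 95% intervals that cover counting error only. In bulk liver, fewer cells with the mark and less of the mark per cell cannot be told apart. The 6 hepatocyte marker genes held 9 WT and 15 KO peaks, of which Cps1 alone held 2 and 11 and the other 5 genes 7 and 4. The density of all genes would have given the 6 genes 6.85 and 5.10. The 20 markers of Kupffer, endothelial, stellate and bile duct cells and lymphocytes together held 30 WT and 23 KO peaks, against 30.4 and 22.6 by that density. Reln alone, with a window of 470 kb, held 11 and 10 of them. Whether the makeup of the tissue had a part in the counts was not tested.

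The windows of the 46 genes, each the gene with 5 kb on either side, covered 4.25 Mb. They held 126 WT peaks and 77 KO peaks. At least 1 peak was found for 28 of the 46 genes in WT (60.9%), for 19 in KO (41.3%) and for 18 in both. Among all protein-coding genes, 47.7% had a peak in WT, 33.3% in KO and 24.3% in both. The listed genes are longer than most. Given the shares among genes whose windows were within 10% of the same length, 28.1 genes would have had a WT peak and 20.9 a KO peak, so the numbers of listed genes with a peak were those of their lengths. The number of peaks was higher than length gave in WT, with 126 against 97.5, the sum of the means of the like-length genes, and near it in KO, with 77 against 75.0. Per 100 kb this was 2.96 peaks in WT, 1.31 times the density of all genes (interval 1.09 to 1.55), and 1.81 in KO, 1.07 times (0.85 to 1.34). Without Ep300 the WT density was 1.23 times that of all genes (1.02 to 1.48).

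**Figure D1:**
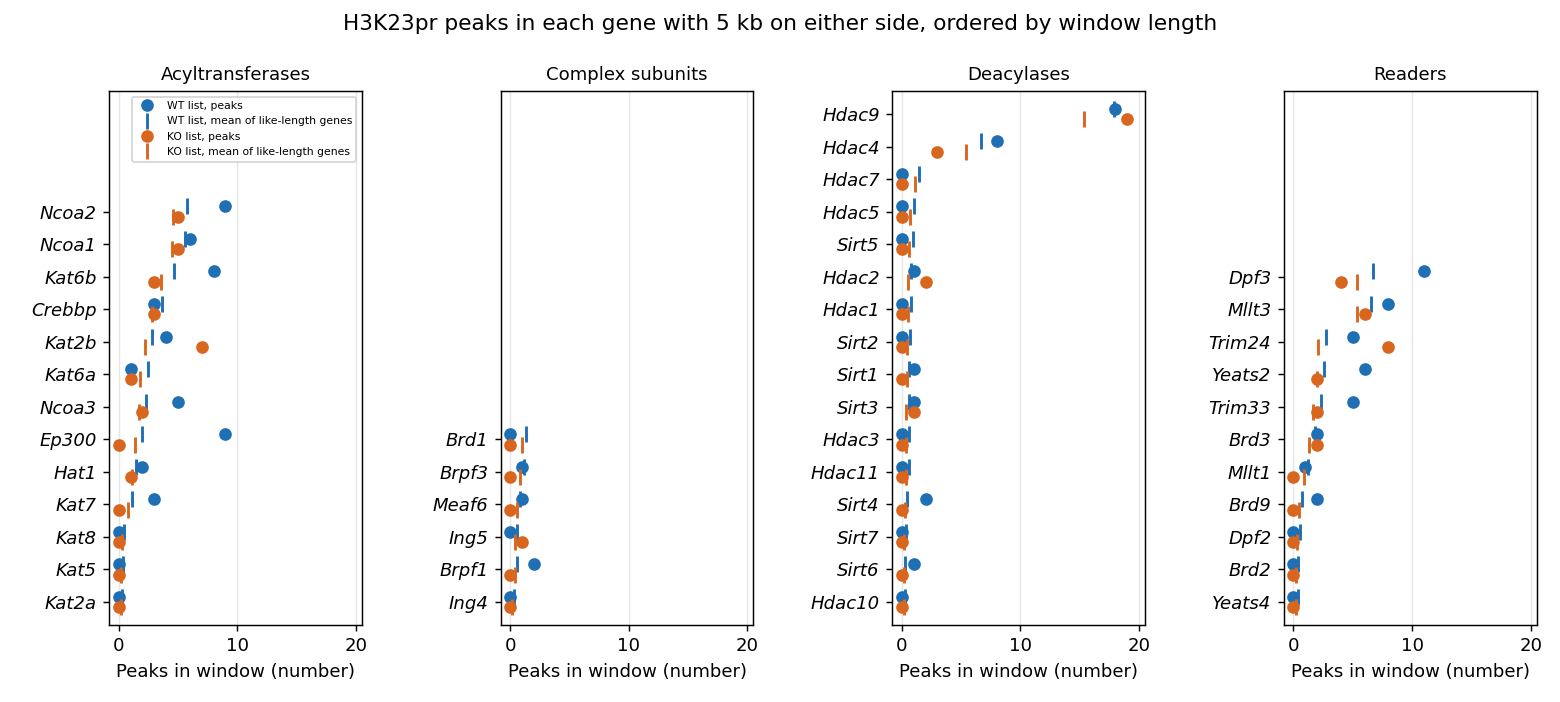
Number of H3K23pr peaks (horizontal axis) in the window of each of the 46 genes, by class and with the longest window at the top; dots are the WT (blue) and KO (orange) counts and ticks the mean of genes with windows within 10% of the same length. Ep300 stands at 9 in WT against a tick of 1.93 and at 0 in KO, while Hdac9 stands at 18 and 19 with ticks of 17.9 and 15.4.

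The acyltransferases had 50 WT and 27 KO peaks, or 3.68 and 1.99 per 100 kb. The WT density was 1.62 times that of all genes (1.2 to 2.14) and the KO density 1.18 times (0.78 to 1.71). Counted with the 6 subunit genes, the WT density was 1.51 times (1.13 to 1.97). Without Ep300 it was 1.41 times (1.01 to 1.91) for the acyltransferases alone and 1.32 times (0.96 to 1.77) with the subunits. A peak was found for 10 of the 13 genes in WT and for 8 in KO, close to the 9.52 and 7.53 of genes of like length. Kat2a, Kat5 and Kat8 had none in either list. Kat2a encodes the acetyltransferase of SAGA, Kat5 that of the NuA4 complex, and Kat8 the enzyme for lysine 16 of histone H4. Their windows were the shortest of the class, at 17.7 to 23.3 kb, and the median over genes of such lengths was 0 peaks in both lists.

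Ep300 (chr15:81586209-81652077) and Crebbp (chr16:4081334-4213957) encode closely related acyltransferases and differed in these lists. Ep300 had 9 WT peaks and 0 KO peaks, and a count of 0 allows up to 3. The WT peaks all lay inside the gene, and from its start to its end they had 6, 5, 5, 5, 6, 6, 4, 9 and 4 fragments. The median of the 866 genes with windows of like length was 2, and no other of them reached 9. The strongest peak (chr15:81640221-81640447) had 9 fragments and a 5.91-fold enrichment, rank 179 of the WT list. Another pair of WT peaks stood only 151 bp apart. In KO the gene lay in a stretch of 327 kb without a peak, which held 16 WT peaks, and the nearest KO peak was 108 kb from its window. Among the gaps between neighbouring KO peaks, 2.14% were as long. That share counts every gap once, whereas a gap around a gene must hold its window and longer gaps take in more genes. Among the like-length genes, the share with any KO peak was 0.607. Crebbp had 3 WT peaks of 6, 5 and 4 fragments and 3 KO peaks of 5 fragments each, which is near the like-length means of 3.61 and 2.77. One WT and one KO peak of Crebbp had midpoints 146 bp apart without overlapping.

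The genes of the H3K23 acyltransferase complexes, Kat6a, Kat6b, Kat7, Brpf1, Brd1, Brpf3, Ing4, Ing5 and Meaf6, had 16 WT peaks and 5 KO peaks. Like-length genes would have held 13.1 and 9.42. The ratio was 0.31 (0.09 to 0.89), an interval that includes the 0.744 for the windows of all genes. In the 250 kb to either side of each gene's middle, its own window left out, the ratio was 0.45 (0.30 to 0.66). Over all genes it was 0.64 in such stretches. Kat6b (chr14:21499216-21672478) contributed 8 WT peaks of 4 to 6 fragments, all inside the gene, and 3 KO peaks of 6, 6 and 4 fragments. One of the KO peaks (chr14:21497686-21497771) lay 1488 bp upstream of the annotated gene. Kat6a, its paralog, had 1 peak in each list, of 4 fragments in WT and 6 in KO (4.46-fold), where like-length genes averaged 2.47 and 1.82. Kat7 (chr11:95271853-95310246) had 3 WT peaks of 7, 5 and 4 fragments and no KO peak. The strongest of these (chr11:95273289-95273398) had a 4.70-fold enrichment and lay 1.49 kb inside the 3′ end of the gene. The KO stretch without a peak around Kat7 was 641 kb long and held 10 WT peaks.

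The 6 subunit genes had 4 WT peaks and 1 KO peak in 0.219 Mb, where genes of like length would have held 4.81 and 3.27. The subunit density was 0.81 times that of all genes in WT (0.22 to 2.06) and 0.27 times in KO (0.01 to 1.51). Brpf1, the scaffold of the KAT6 complexes, had 2 WT peaks of 4 and 7 fragments and none in KO. Its 7-fragment peak (chr6:113318910-113319038) had a 4.47-fold enrichment. Brpf3 had 1 WT peak of 6 fragments, 4.04-fold, and Meaf6 1 of 5 fragments. Both lacked a KO peak, and Brpf3 lay in the longest such gap of the listed genes, 2221 kb with 29 WT peaks. Ing5, a PHD finger subunit, was the only listed gene with a peak in KO alone. That peak (chr1:93823670-93823741, 6 fragments, 3.39-fold) lay 1604 bp beyond the gene end and inside the neighbouring gene D2hgdh. Brd1 and Ing4 had no peak in either list.

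Kat2b, the paralog of Kat2a, went the other way from Ep300. It had 4 WT peaks of 6, 6, 5 and 6 fragments and 7 KO peaks of 4, 4, 6, 5, 4, 5 and 6. The WT peaks lay at the start and in the first part of the gene, the foremost (chr17:53566137-53566250) 778 bp upstream of the nearest listed start, and the KO peaks mostly further into it. Among 631 genes of like length the median KO count was 1, and 6.50% had 7 or more. For WT the median was 3, and 34.9% had 4 or more. The KO count of Kat2b includes a pair of peaks of 4 fragments each that were 202 bp apart. In the 250 kb to either side of the middle of Kat2b there were 14 WT and 20 KO peaks. Over all genes the means were 10.6 and 6.97, and these stretches include the gene. Hat1, which acetylates newly made histone H4, had 2 WT peaks and 1 KO peak, all of 4 fragments. The nuclear receptor coactivators Ncoa1, Ncoa2 and Ncoa3, reported to have acetyltransferase activity of their own, had 20 WT and 12 KO peaks together. Genes of like length would have held 13.7 and 10.8. Ncoa1 had 6 and 5, Ncoa2 9 and 5, and Ncoa3 5 and 2. The highest summit among them, 9 fragments in WT in Ncoa1, was on a background of 1.45 fragments and so had a fold of only 4.08.

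**Figure D2:**
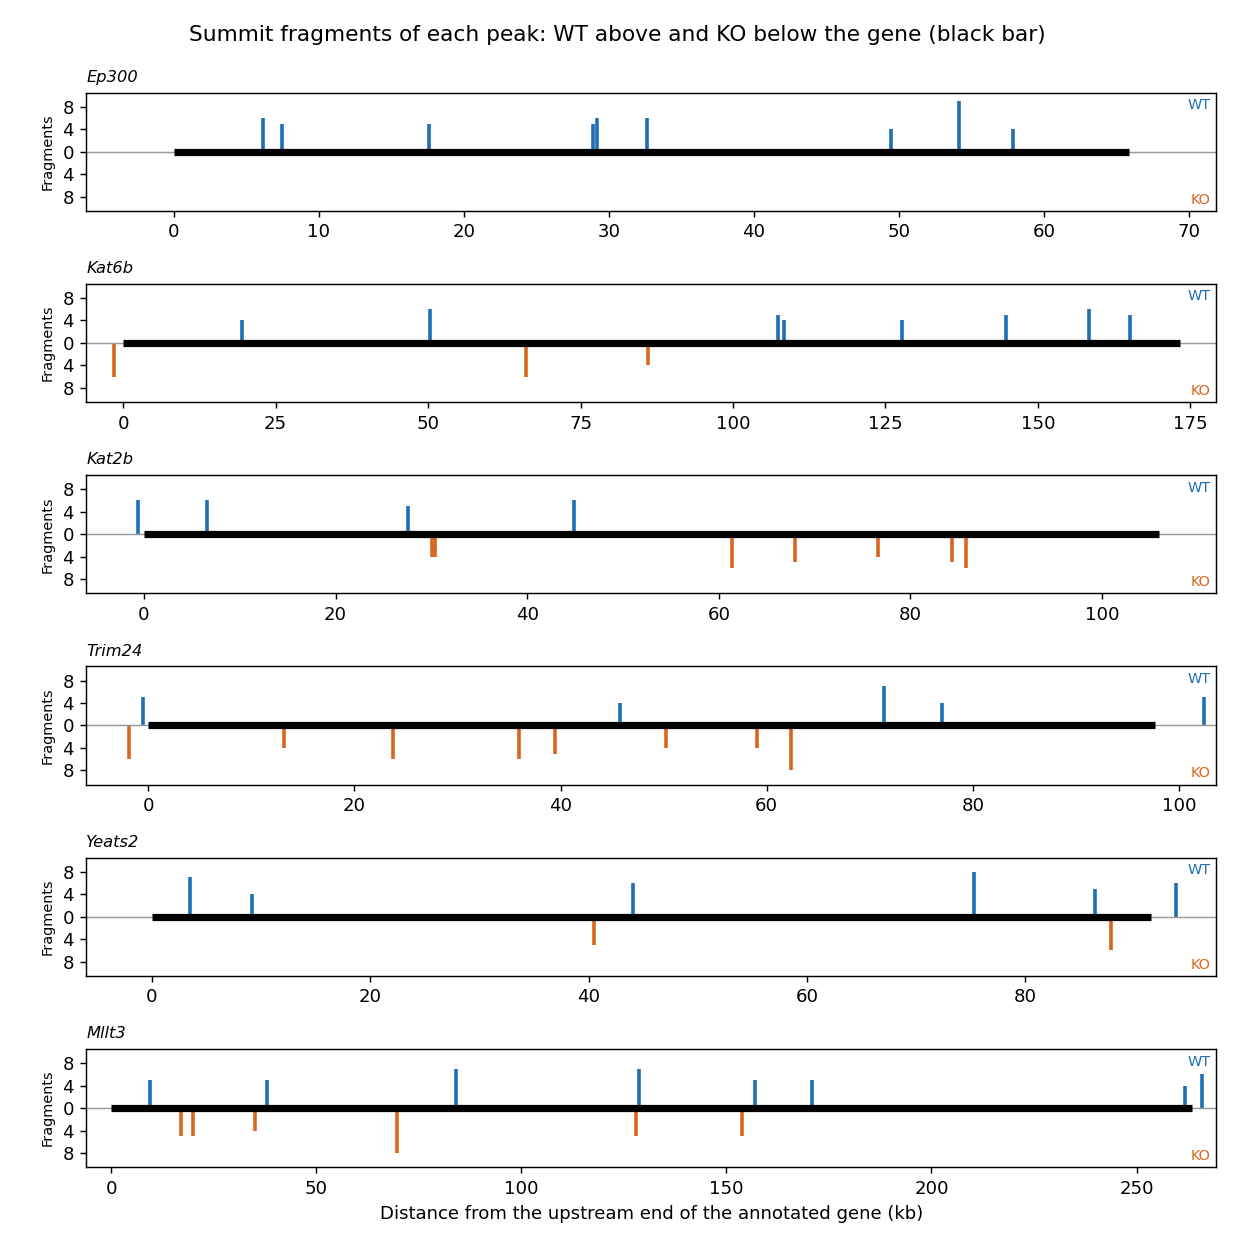
Position of each peak along 6 of the genes (horizontal axis, kb from the upstream end of the annotated gene, black bar) with the number of IP fragments at its summit, WT upward in blue and KO downward in orange. Ep300 shows 9 WT and no KO peaks, the KO peaks of Kat2b and Trim24 outnumber the WT peaks by 7 to 4 and 8 to 5, and WT and KO peaks fall at different places in each gene.

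The deacylases had 32 WT and 25 KO peaks, or 2.01 and 1.57 per 100 kb, which was 0.88 times the density of all genes in WT (0.60 to 1.25) and 0.93 times in KO (0.60 to 1.37). A peak was found for 7 of the 16 genes in WT and for 4 in KO, where genes of like length gave 8.14 and 5.72. The 9 genes with no peak in either list were Hdac1, Hdac3, Hdac5, Hdac7, Hdac10, Hdac11, Sirt2, Sirt5 and Sirt7. Hdac9 alone held 18 of the WT and 19 of the KO peaks. The other 15 genes had 14 WT and 6 KO peaks, with a KO density 0.50 times that of all genes (0.18 to 1.08).

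Hdac9, a class IIa deacetylase, spans 870 kb (chr12:34047580-34917095). Its WT peaks had 4 to 6 fragments, and so did its KO peaks. The means over the 38 genes of like length were 17.9 in WT and 15.4 in KO, and 47.4% and 28.9% of those genes had as many peaks or more, so both counts were those of a very long gene. No WT peak of Hdac9 overlapped a KO peak. Hdac4, of the same class, had 8 WT peaks of 4 to 7 fragments and 3 KO peaks of 4, 4 and 5. Its 2 strongest WT peaks had 7 fragments and a 4.73-fold enrichment each. A WT and a KO peak of Hdac4 had midpoints 276 bp apart. Hdac5 and Hdac7, the short members of the class, had none.

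Hdac2, the class I deacetylase of the NuRD, Sin3 and CoREST complexes, had the strongest KO peak of the listed genes. This peak (chr10:36980155-36980249) had 9 fragments and a 6.38-fold enrichment, rank 172 of the KO list, and lay inside the gene. A second KO peak inside Hdac2 had 6 fragments, while the only WT peak, of 4 fragments, lay 953 bp beyond the gene end. Hdac1, its paralog, and Hdac3, the deacetylase of the NCoR complex, had no peak.

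The sirtuins had 5 WT peaks and 1 KO peak in 7 genes, where genes of like length would have held 3.82 and 2.35. A peak was found for 4 sirtuin genes in WT and 1 in KO, against 2.72 and 1.59 by length. Sirt4, a mitochondrial sirtuin, had 2 WT peaks of 7 and 4 fragments, the first 1189 bp inside and the second 833 bp beyond the 5′ end of the annotated gene. Among 1952 genes of like length, 7.33% had 2 or more. Sirt1 and Sirt6, which act on nuclear histones, each had 1 WT peak of 5 fragments, but both peaks lay inside a neighbour, Herc4 and Ankrd24. Sirt3, the main mitochondrial deacetylase, had 1 peak in each list, and both had 8 fragments. The midpoints were 564 bp apart, in the gene next to Sirt3, which is Psmd13, a subunit of the proteasome lid like the targeted Psmd14. The WT peak (chr7:140883434-140883551) had a 4.74-fold enrichment and the KO peak (chr7:140882885-140882972) only 3.63-fold, on a background of 1.48 fragments against 0.90 in WT.

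The readers had 40 WT and 24 KO peaks, or 3.70 and 2.22 per 100 kb. The WT density was 1.63 times that of all genes (1.16 to 2.22) and the KO density 1.31 times (0.84 to 1.96). Of the 11 genes, 8 had a WT peak and 6 a KO peak, close to the 7.49 and 5.75 of genes of like length. Yeats4, Brd2 and Dpf2 had none.

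Of the double PHD finger readers, Dpf3 (chr12:83213751-83487736) had 11 WT peaks of 4 to 7 fragments and 4 KO peaks of 4 or 5. Like-length genes averaged 6.72 and 5.32. Dpf2, its shorter paralog in the BAF complex, had none in a window of 26.4 kb. Of the YEATS domain readers, Yeats2, a subunit of the ATAC complex, had 6 WT peaks of 7, 4, 6, 8, 5 and 6 fragments and 2 KO peaks of 5 and 6. Among 700 genes of like length, 7.29% had 6 or more WT peaks. The last WT peak of Yeats2 lay inside the neighbouring gene Map6d1. Mllt3, which encodes AF9 of the super elongation complex, had 8 WT peaks of 4 to 7 fragments and 6 KO peaks of 4 to 8. The strongest KO peak of Mllt3 (chr4:87963750-87963833) had 8 fragments and a 5.74-fold enrichment, rank 364 of the KO list. Mllt1, which encodes the paralog ENL, had 1 WT peak of 6 fragments, 707 bp inside the 3′ end of the gene.

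Trim24 (chr6:37870811-37968445), the reader known for acetylated H3K23, had 5 WT peaks of 5, 4, 7, 4 and 5 fragments and 8 KO peaks of 6, 4, 6, 6, 5, 4, 4 and 8. Among 686 genes of like length the median KO count was 1, and 3.35% had 8 or more. In WT the median was 3, and 17.2% had 5 or more. The strongest KO peak (chr6:37933115-37933187) had a 5.54-fold enrichment, rank 1008. The 250 kb to either side of the middle of Trim24, the gene included, held 16 WT and 17 KO peaks. Over all genes the means of such stretches were 10.6 and 6.97. Trim33, which encodes a related protein with a PHD finger and a bromodomain, had 5 WT peaks and 2 KO peaks. Without Trim24 the readers had 35 WT and 16 KO peaks.

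Brd3, a BET family bromodomain reader, held the only site of the 46 genes called in both lists by overlap. The WT peak (chr2:27506606-27506711) had 5 fragments and a 3.32-fold enrichment, and the KO peak (chr2:27506606-27506726) 6 fragments and a 3.43-fold enrichment, with 106 bp in common. The site lay about 1.0 kb inside the 5′ end of the annotated gene and 31.3 kb upstream of the start listed for it. Brd3 had 1 more peak in each list, at separate places, of 6 fragments (2.86-fold) in WT and 8 (3.88-fold) in KO. These 2 peaks were on backgrounds of 1.45 and 1.32 fragments. Brd2, of the same family, had no peak. Brd9, a bromodomain subunit of the BAF complex that also binds butyrylated lysine, had 2 WT peaks of 5 fragments upstream of its start, at 1074 and 2962 bp, both inside the neighbouring gene Trip13.

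**Figure D3:**
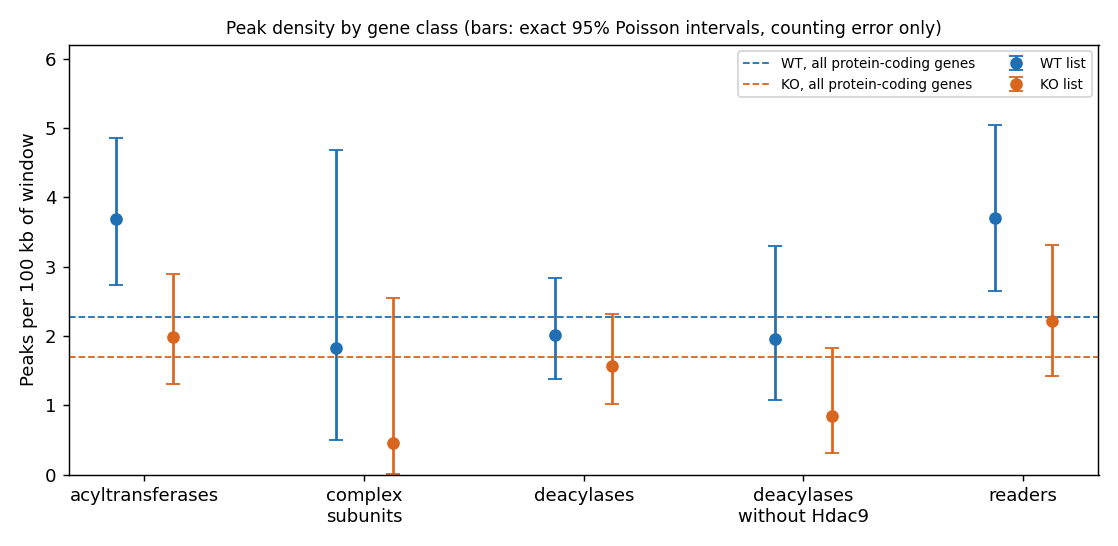
Peaks per 100 kb of window (vertical axis) for each class in WT (blue) and KO (orange), with exact 95% Poisson intervals as bars and the density of all protein-coding genes as dashed lines (2.27 in WT and 1.69 in KO). The WT points of acyltransferases (3.68) and readers (3.70) lie above the WT line with their intervals, and the deacylases (2.01) do not.

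The ratio of KO to WT peaks was 0.61 (0.45 to 0.82) over the 46 genes, 0.54 (0.33 to 0.88) in acyltransferases, 0.78 (0.44 to 1.36) in deacylases and 0.60 (0.35 to 1.02) in readers. Over the windows of all genes it was 0.744. All of these intervals overlap and include the ratio of all genes. More WT than KO peaks were found in 20 of the listed genes, more KO than WT in 5 (Kat2b, Trim24, Hdac2, Hdac9 and Ing5) and equal numbers above 0 in 4. Leaving out Ep300 gave 0.66 (0.39 to 1.10) in the acyltransferases. Leaving out Hdac9 gave 0.43 (0.13 to 1.19) in the deacylases. Over the 46 genes the ratio was 0.59 with peaks of at least 5 fragments and 0.72 when each list was limited to its 20000 strongest peaks. With the authors' q of 0.05 or smaller, 15 WT and 16 KO peaks were left and the ratio was 1.07 (0.49 to 2.32), beside 2.00 over all gene windows. That threshold asks for different numbers of fragments in the 2 lists, since every remaining WT peak had at least 7 fragments, while 12 of the 16 KO peaks had 6.

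The ratio also differed by window length, among all genes as among the listed ones. In windows under 50 kb, a length chosen after seeing the data, the listed genes had 15 WT and 4 KO peaks, a ratio of 0.27 (0.06 to 0.84), against 0.610 for all genes with such windows. In longer windows they had 111 and 73 peaks, a ratio of 0.66 (0.48 to 0.89), against 0.791. In the 250 kb to either side of the middle of each gene there were 509 WT and 265 KO peaks, summed over the 46 genes, a ratio of 0.52 (0.45 to 0.61) beside 0.65 for all genes. These stretches include the genes. With the peaks in each gene's own window left out, 389 WT and 193 KO peaks remained, a ratio of 0.50 (0.42 to 0.59) beside 0.64 for all genes. Several short genes lay in long KO gaps, among them Sirt6 (2210 kb), Sirt7 (1357 kb), Sirt4 (1220 kb) and Kat5 and Dpf2, which share a gap of 1224 kb on chromosome 19. Over all gaps between neighbouring KO peaks the median was 31.9 kb, but a gap around a gene without a peak must hold its window. Not all short genes without a KO peak lay in such long gaps, as for Sirt5 (67.9 kb) and Sirt1 (88.1 kb). What part the surroundings had in the counts of the genes was not tested.

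**Figure D4:**
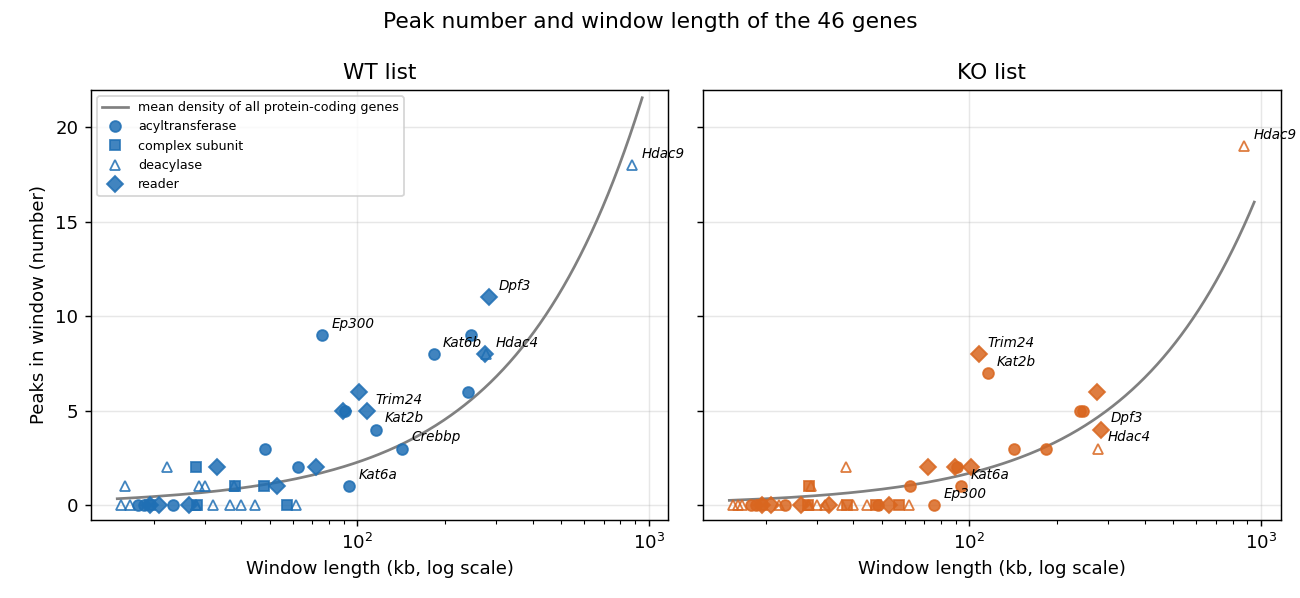
Number of peaks in the window (vertical axis) against window length in kb (log scale) for the 46 genes, in the WT and KO lists, with the line that the mean density of all protein-coding genes would give. Ep300 (9 peaks in WT) lies far above the WT line and at 0 in KO, Trim24 (8) and Kat2b (7) lie above the KO line, and Hdac9 (18 and 19) is near the line in WT.

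WT and KO peaks rarely fell at the same site. Besides Brd3, pairs with midpoints at most 1 kb apart were found in Crebbp, Hdac4, Sirt3, Mllt3 (910 bp) and Ncoa3 (952 bp). These 6 sites were 4.76% of the 126 WT peaks and 7.79% of the 77 KO peaks. In the whole lists 4.40% of WT and 5.88% of KO peaks had such a partner, so the listed genes were close to the lists.

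Peaks lay across the gene bodies. The flanks, which made up 10.8% of the windows, held 13 of the 126 WT peaks (10.3%, interval 5.61 to 17.0). They held 4 of the 77 KO peaks (5.19%, interval 1.43 to 12.8). Over all protein-coding genes the flanks made up 17.2% of the windows and held 15.9% of the WT and 13.1% of the KO peaks. For the 39 genes with a known strand, equal stretches at the front, middle and back of the gene held 26, 36 and 32 WT peaks and 24, 23 and 16 KO peaks. Within 2 kb of a gene end there were 11 WT peaks in 10 genes and 5 KO peaks in 5 genes, given without a share over all genes. The genes with such a WT peak were Brd3, Brd9, Hdac2, Kat2b, Kat7, Mllt1, Mllt3, Sirt3, Sirt4 and Trim24, and those with such a KO peak Brd3, Ing5, Kat6b, Sirt3 and Trim24. Of the WT peaks 6 and of the KO peaks 2 lay in the body of another gene, also given without a share over all genes.

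The peaks of the listed genes were as weak as those of the lists. WT peaks had 4 to 9 fragments with a median of 5, and 40 had 4, 45 had 5, 25 had 6 and 16 had 7 or more. The share with 7 or more was 12.7% (7.44 to 19.8), against 11.9% of the list. KO peaks also had 4 to 9, with 26, 28, 18 and 5 in the same steps, and 6.49% (2.14 to 14.5) had 7 or more, against 9.56% of the list. The folds of WT peaks were 2.86 to 5.91 and those of KO peaks 3.19 to 6.38.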

How the data were processed

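Formaldehyde-fixed, sonicated liver chromatin was precipitated with an antibody against H3K23pr, per the labels' protocols. The submitters' processing notes name cutadapt 1.9.3, Bowtie2 2.2.4 and the build mm10. Per the file headers, MACS 2.1.1.20160309 called paired-end peaks in each IP library against its own input, with a p cutoff of 0.001 and no more than 2 fragments kept per pair of ends. The deposited pileup is a signal that counts IP fragments at the summit. The deposited fold is the ratio of pileup to local background with 1 added to both, and p and q are deposited as −log10 values. The file headers list 9385834 WT and 10000823 KO input fragments after filtering. The shorter KO fragments allowed shorter KO peaks (at least 71 bp against 97 bp in WT).

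Peaks overlapping a gene with 5 kb on either side by at least 1 bp were counted with Python 3.11.15, pandas 2.3.3 and scipy 1.17.1, and the counting was tested on planted peaks. Gene positions and starts were from RefSeq tables of GRCm38.p6, the assembly of mm10. The tables gave no strand for Hdac1, Hdac3, Hdac10, Kat6a, Ncoa2, Ncoa3 and Trim33. With 1 library per genotype no p-value was computed. Poisson intervals are given for counts and exact (Clopper-Pearson) binomial intervals for shares and ratios. Fragments carry no molecular identifiers.

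Groups came from the sample titles and genotype labels. The members and lists were chosen with earlier results of these data known. Named with values were all genes of the H3K23 acyltransferase complexes, those with the strongest or densest peaks, overlapping peaks, a peak within 2 kb of a gene end or the largest WT or KO excess, and those without a peak. Hat1, Crebbp, the Ncoa genes, Hdac9, Dpf3, Yeats2, Trim33, Sirt1 and Sirt6 were named beyond this where another rule or a paralog asked for them, after their values were seen. Alternatives were other window sizes, stricter peaks, midpoints in place of overlaps and a wider distance for shared sites. Leaving out Ep300, Hdac9 or Trim24 was chosen after seeing the data.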

Additional observations from a re-analysis of the deposited data

How the results depend on the processing

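Over 18 results, 128 alternative values were computed, of which 111 stayed within counting error or within 1.5 times the value given, 16 moved beyond it and 1, whose interval had lain below 1, passed to the other side of 1. That was the ratio of KO to WT peaks over the 46 genes, which went from 0.611 to 1.07 with a q of 0.05 or smaller, where the ratio over the whole lists was 2.2. At that threshold 15 WT and 16 KO peaks in 12 and 11 genes remained. The ratio was then 0.833 in acyltransferases with their subunits and 1.17 in readers, and it was 1.33 (0.23 to 9.10) in deacylases, so that of readers and deacylases also passed 1, from 0.60 and 0.78. The density relative to all genes was 0.643 (acyltransferases with subunits, KO), 0.508 (deacylases, KO) and 2.25 (readers, WT). With at least 5 fragments 51 KO peaks were left. With the strongest 20000 peaks of each list 57 WT and 41 KO peaks were left. Without Hdac9, the relative KO density of deacylases was 0.497 and their ratio 0.429. With midpoints at most 1 kb apart in place of overlap, 4.76% of WT and 7.79% of KO peaks had a partner. No paired analysis was possible because each genotype had 1 library and the labels carry no replicate numbers. The depth limits these values, since most peaks rest on 4 to 6 fragments.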

Other observations

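A further 40 genes of histone acylation, outside the 46, held peaks near the density of all genes. They included other bromodomain proteins, ING subunits and parts of the SAGA, NuA4, NCoR, Sin3, NuRD and chromatin remodelling complexes. Their windows held 81 WT and 61 KO peaks, which was 1.09 and 1.10 times the density of all genes, and 30 and 22 of them had a peak, against 27.5 and 20.7 among genes of like length. The ratio of KO to WT peaks was 0.75 (0.53 to 1.06, counting error only). The 4 genes named here held the peaks of smallest p, as the authors' lists rank them. By fragments alone the highest summit was a KO peak of Rcor1 with 14, named after its values were seen. Smarca4, the BRG1 ATPase of the BAF complex, had 2 WT peaks, the higher with 10 fragments and a 6.01-fold enrichment, and none in KO. Atad2b, which encodes an ATPase with a bromodomain, had 4 WT peaks, the strongest with 9 fragments and a fold of 5.91, and 2 KO peaks of at most 6. Epc2, a scaffold of the NuA4 complex, had a strongest peak of 8 fragments in both lists, with 3 WT and 4 KO peaks in all. Cecr2, a bromodomain protein of a remodelling complex, had 7 WT peaks of up to 9 fragments and 10 KO peaks of up to 7.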
